A study of Mus musculus with 18 samples.

Results

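The 10 genes described here encode components and close regulators of inflammasomes, and they were chosen by symbol as Nlrp3, Nlrc4, Nlrp1b, Pycard, Casp1, Casp4, Gsdmd, Casp8, Nek7 and Txnip. Each symbol matched 1 gene row, so the set holds 10 of the 50600 gene rows of the count table, and all 10 passed the filter on low counts that left 15663 genes for testing. The samples were bone marrow-derived macrophages (BMDMs) from male C57BL/6J mice of 8 to 11 weeks or from IRF5-/- mice (IRF5 KO), grown for 8 days in GM-CSF. The comparisons asked how the response to lipopolysaccharide (LPS, a bacterial ligand of TLR4) depends on the transcription factor IRF5 and on defactinib, an inhibitor of the kinases PYK2 and FAK. In each genotype there were 3 unstimulated libraries, 3 that received DMSO as vehicle for 1 h and then LPS at 100 ng/ml for 2 h (LPS DMSO), and 3 that received 3.5 µM defactinib for 1 h and then the same LPS (LPS defactinib). Whether the unstimulated cells also received DMSO is given differently by the labels and the column names, so LPS comparisons may include the vehicle.

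Inflammasomes are cytosolic complexes in which a sensor, such as NLRP3, NLRC4 or NLRP1b, recruits the adaptor ASC (encoded by Pycard) and caspase-1. Caspase-1 then cleaves pro-IL-1β, pro-IL-18 and gasdermin D, whose fragment forms pores in the plasma membrane. Macrophages are known to need a priming signal such as LPS, which raises sensor and cytokine transcripts, before a separate activating signal assembles the complex. The libraries measure transcripts, so they bear on priming and not on assembly or cleavage.

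The 18 libraries held between 39282181 and 61949143 counted read pairs, with a median of 45317217. Mitochondrial counts made up 1.05 to 1.26% of WT LPS defactinib libraries and 0.671 to 0.913% of WT LPS DMSO libraries, and the 10 most abundant genes took 13.6 to 15.7% and 8.73 to 9.38%. The part of these differences in the defactinib effects in WT was not tested. All 6 macrophage markers examined (Adgre1, Csf1r, Itgam, Cd68, Lyz2 and Mertk) were present in every group, although their levels differed, with Adgre1 at a mean of 73.3 CPM (counts scaled to a common library total) in WT and 302 CPM in IRF5 KO unstimulated cells. The 5 dendritic cell markers summed to 1968 to 2951 CPM over all libraries, most of it Itgax, but single markers moved with the groups. Ccr7 had means of 36.0, 311 and 23.2 CPM in WT cells (unstimulated, LPS DMSO, LPS defactinib) and 63.1, 114 and 156 CPM in the IRF5 KO, and Zbtb46 had 60.4, 91.2 and 25.2 CPM in WT and 34.9, 61.9 and 70.8 CPM in the IRF5 KO. Dpp4 had 6.64, 11.3 and 30.3 CPM in WT and 29.3, 49.9 and 35.2 CPM in the IRF5 KO, and Flt3 lay near 2.11 CPM in WT LPS DMSO and 2.16 CPM in WT LPS defactinib. Between LPS DMSO and LPS defactinib in WT, Mertk went from 150.3 to 47.9 CPM and Adgre1 from 94.4 to 208 CPM. Neutrophil markers summed to 43.5 to 62.0 CPM in unstimulated and 91.8 to 174 CPM in LPS-treated libraries of both genotypes, carried by S100a8 and S100a9, while Ly6g, Elane and Mpo had means of at most 1.03 CPM in every group. The 7 T, B and NK cell markers summed to at most 1.04 CPM. Mast cell and basophil markers summed to 7.89 to 15.5 CPM in WT and 42.7 to 72.4 CPM in IRF5 KO libraries, carried by Gata2 and Kit. The 4 other members of that list, Mcpt8, Cpa3, Ms4a2 and Fcer1a, had means of at most 0.656 CPM in every group of both genotypes. The part of these marker differences in the results below was not tested. Whole-gene counts of Irf5 were 614 ± 32.5 CPM in WT and 365 ± 30.8 CPM in IRF5 KO unstimulated cells (mean ± SD, n = 3), and 451 ± 21.1 and 404 ± 51.3 CPM after LPS with DMSO. A whole-gene count cannot tell a deleted exon from an intact one, so it does not check the genotype labels. IRF5 KO LPS DMSO replicate 3 stood apart from its group and is called the outlying library below. The root mean square difference in log2 CPM over the tested genes was 0.427 between replicates 1 and 2 and 1.25 between either of them and replicate 3. Replicates 1 and 2 lay at 0.557 to 0.595 from the IRF5 KO LPS defactinib libraries, and replicate 3 lay at 0.689 to 0.725 from the unstimulated IRF5 KO libraries. The treatment labels of this group are therefore in doubt. Its values below are those of the libraries labelled IRF5 KO LPS DMSO, and all comparisons with that group, the defactinib effect in the IRF5 KO among them, depend on the labels being right. The main results that rest on it are also given without the outlying library. Those values keep replicates 1 and 2, the ones near the defactinib libraries, so they cannot settle the doubt about the labels. In bulk libraries such as these, fewer cells of a type and less RNA per cell cannot be told apart.

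The stretches upstream of 3 of the genes are shown, each being the 250 bases before an annotated transcript start in RefSeq (GRCm38.p6, plus strand), written 5′ to 3′. Nlrp3, Casp4 and Txnip were picked because their transcript levels moved most, after those values were seen. Capitals mark matches to any of 4 motifs on either strand, namely a κB-like motif (GGG, any 3 bases, T, any base, then CC; the type of site bound by NF-κB), an ISRE-like motif (GAAA, any 2 bases, then GAAA; the type bound by interferon regulatory factors), TGANTCA (AP-1-like) and CACGTG (E-box).

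Casp4, chr9:5308599-5308848: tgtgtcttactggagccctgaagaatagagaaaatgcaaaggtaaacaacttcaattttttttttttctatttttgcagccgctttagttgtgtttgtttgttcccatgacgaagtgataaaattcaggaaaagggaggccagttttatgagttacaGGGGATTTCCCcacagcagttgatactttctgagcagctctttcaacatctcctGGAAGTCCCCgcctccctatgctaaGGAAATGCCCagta
Nlrp3, chr11:59541319-59541568: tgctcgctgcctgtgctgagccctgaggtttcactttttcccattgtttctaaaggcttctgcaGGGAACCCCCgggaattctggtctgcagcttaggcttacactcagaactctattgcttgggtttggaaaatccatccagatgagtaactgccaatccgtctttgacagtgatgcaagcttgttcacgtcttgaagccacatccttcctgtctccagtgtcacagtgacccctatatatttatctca
Txnip, chr3:96557707-96557956: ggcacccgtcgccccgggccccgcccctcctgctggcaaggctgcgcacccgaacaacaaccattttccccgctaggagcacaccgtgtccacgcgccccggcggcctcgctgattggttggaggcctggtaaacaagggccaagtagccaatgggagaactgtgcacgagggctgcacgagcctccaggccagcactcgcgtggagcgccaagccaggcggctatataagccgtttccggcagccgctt

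The Casp4 stretch held 5 κB-like matches, 3 of which overlap in its first capital run, where the letters read as a match on both strands. The Nlrp3 stretch held 1 κB-like match, beginning 186 bases before the start, while a second annotated Nlrp3 start had none of the 4 motifs in its window. The Txnip stretch held none of the 4. Of 32851 RefSeq windows from 250 bases before to 50 bases after a start, 17.4% held the κB-like letters, 3.44% the ISRE-like, 7.81% the AP-1-like and 7.15% the E-box. Windows were found for 9 of the 10 genes (12 windows). Among the other members, Nek7 held 1 κB-like match and Casp1 held 1 E-box, and no ISRE-like or AP-1-like match was found in any of the 12 windows. A match of letters is not a measured binding site.

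Per length of annotated exon, Txnip was the most abundant of the 10 transcripts in unstimulated WT cells, at 110.1 ± 3.77 CPM per kb (mean ± SD, n = 3, as for all group levels below). Gsdmd (50.7 ± 2.48), Casp1 (41.1 ± 1.40) and Nlrp3 (29.5 ± 0.93 CPM per kb) followed. Casp8 (26.0 ± 0.60) and Pycard (25.1 ± 1.10 CPM per kb) did not differ beyond their spread, and Nek7 stood at 18.5 ± 1.87. Casp4 (4.40 ± 0.31), Nlrc4 (3.43 ± 0.27) and Nlrp1b (1.34 ± 0.12 CPM per kb) were the scarcest. After LPS, Nlrp3 headed the order in WT at 94.3 ± 8.32 CPM per kb, above Txnip (76.8 ± 3.29), Casp1 (74.8 ± 7.12) and Gsdmd (73.8 ± 9.56), which did not differ beyond their spread. With defactinib before LPS, Nlrp3 in WT stood at 15.4 ± 3.83 CPM per kb, next below Nek7 in the order, although the libraries of these neighbours overlapped. In IRF5 KO cells with defactinib, by contrast, Nlrp3 stood first at 129.8 ± 1.85 CPM per kb. The length used is that of all annotated exons of a gene, so genes with long alternative exons read low on this scale.

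**Figure D1:**
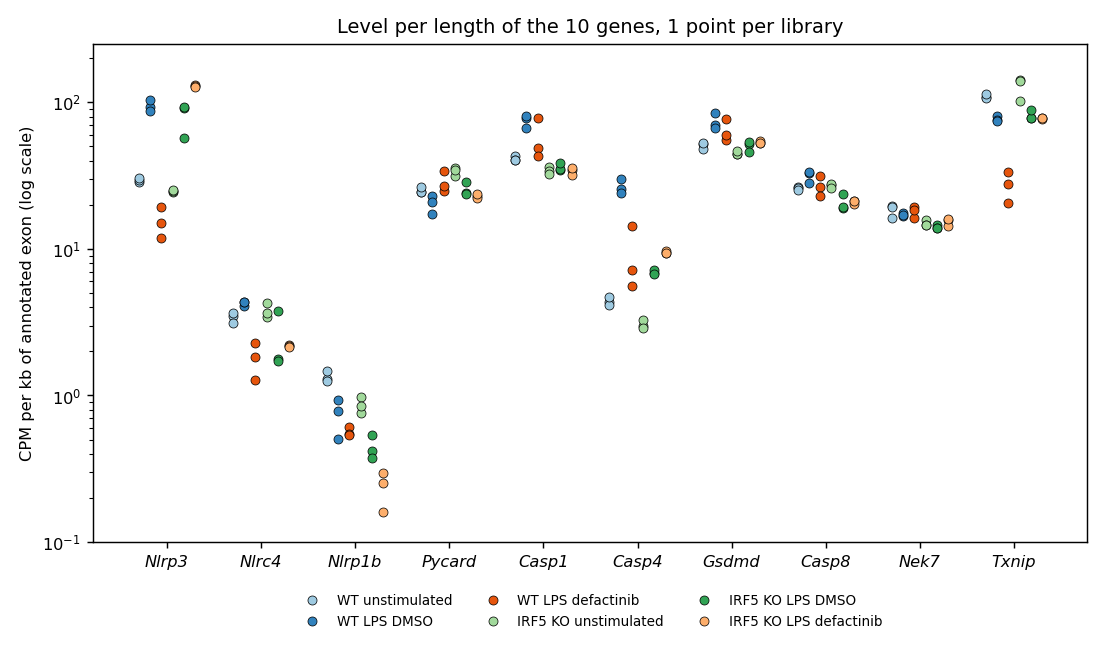
Level of each of the 10 genes in CPM per kb of annotated exon (log scale), with 1 point per library and 1 colour per group. With defactinib, the mean of Nlrp3 is 15.4 in WT and 129.8 in the IRF5 KO, and Nlrp1b is lowest in every group.

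Nlrp3 encodes the sensor that responds to potassium efflux and many kinds of cell damage, and lies on chr11:59541568-59566956 (mm10, plus strand, ENSMUSG00000032691). In WT cells its libraries read 116, 119 and 124 CPM unstimulated and 377, 352 and 419 CPM after LPS. With defactinib before LPS they read 78.8, 47.8 and 61.0 CPM. The 3 groups did not overlap, and the defactinib libraries lay below even the unstimulated ones. LPS raised Nlrp3 by 1.68 on the log2 scale (SE 0.17, edgeR adjusted p = 1.8e-06), a 3.20-fold difference in mean CPM. Defactinib lowered it against LPS alone (log2 fold change -2.61, SE 0.18, edgeR adjusted p = 2.56e-08), and LPS alone was 6.12-fold higher in mean CPM. These comparisons share the 3 WT LPS DMSO libraries. Against unstimulated cells, which are not shared with the defactinib comparison, LPS with defactinib gave -0.94 (SE 0.17, edgeR adjusted p = 0.000432), just short of the 2-fold threshold, and -1.11 without WT LPS defactinib replicate 1, which is past it.

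In IRF5 KO cells Nlrp3 read 99.5, 100.1 and 101.8 CPM unstimulated, and 373, 379 and 233 CPM after LPS. With defactinib before LPS it read 534, 525 and 520 CPM. The order thus differed from that in WT, with the defactinib libraries highest and no overlap between the 3 groups. LPS raised Nlrp3 by 1.71 (SE 0.17, edgeR adjusted p = 1.42e-05), and by 1.90 without the outlying library. Defactinib against LPS alone gave 0.68 (SE 0.17, edgeR adjusted p = 0.0431), below the 2-fold threshold, and 0.49 without the outlying library. Leaving out each library in turn moved this adjusted p between 0.0215 and 0.141.

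The genotypes were close in Nlrp3 level without the inhibitor and far apart with it. WT against IRF5 KO differed by 0.25 unstimulated (95% interval -0.08 to 0.59, edgeR adjusted p = 0.396) and by 0.22 after LPS (-0.11 to 0.55, adjusted p = 0.282), or 0.03 after LPS without the outlying library. The difference between the LPS effects of the genotypes was -0.03 (95% interval -0.50 to 0.44, edgeR adjusted p = 0.947), or -0.23 without it. After LPS with defactinib, Nlrp3 was lower in WT than in IRF5 KO by a log2 fold change of -3.07 (SE 0.18, edgeR adjusted p = 6.13e-09), an 8.42-fold higher mean in the IRF5 KO. The test of the difference between the defactinib effects gave -3.30 (SE 0.25, edgeR adjusted p = 1.3e-07), and -3.10 without the outlying library.

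Nlrc4 encodes the sensor that joins NAIP proteins bound to bacterial flagellin or secretion-system parts (chr17:74426295-74459108, minus strand, ENSMUSG00000039193). It read 13.4, 14.1 and 12.04 CPM in unstimulated WT cells, 15.5, 16.6 and 16.7 after LPS, and 7.07, 4.91 and 8.71 after LPS with defactinib. The WT defactinib libraries lay below all other WT libraries. Defactinib lowered Nlrc4 in WT (log2 fold change -1.24, SE 0.25, edgeR adjusted p = 0.00069), whereas LPS alone gave 0.31 (adjusted p = 0.35), a value that turned to -0.07 with library size alone. In IRF5 KO cells, Nlrc4 read 13.1, 16.4 and 13.9 CPM unstimulated, 6.83, 6.55 and 14.4 after LPS, and 8.43, 8.31 and 8.26 after LPS with defactinib. The outlying library thus lay among the unstimulated ones while LPS DMSO replicates 1 and 2 did not, and the LPS effect depended on it, at -0.64 (edgeR adjusted p = 0.0537) with it and -1.11 without it, which is past both thresholds. The difference between genotypes after LPS likewise moved from 0.81 (adjusted p = 0.0131) to 1.28 without it, and the difference between LPS effects from 0.95 (adjusted p = 0.0744) to 1.42. The defactinib effects differed between genotypes by -1.08 (SE 0.35, edgeR adjusted p = 0.0247), or -1.56 without the outlying library. This call was lost, at adjusted p between 0.0503 and 0.0702, when a single library was left out, namely replicate 2 or 3 of WT LPS DMSO, replicate 2 of WT LPS defactinib, or, among IRF5 KO libraries, LPS DMSO replicates 1 and 2 and LPS defactinib replicate 1. It was also lost with library size alone (-0.73, edgeR adjusted p = 0.148), under 2-fold with a filter of 5 CPM in 3 libraries (-0.997), and lost when only the groups compared were fitted (adjusted p = 0.0838).

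**Figure D2:**
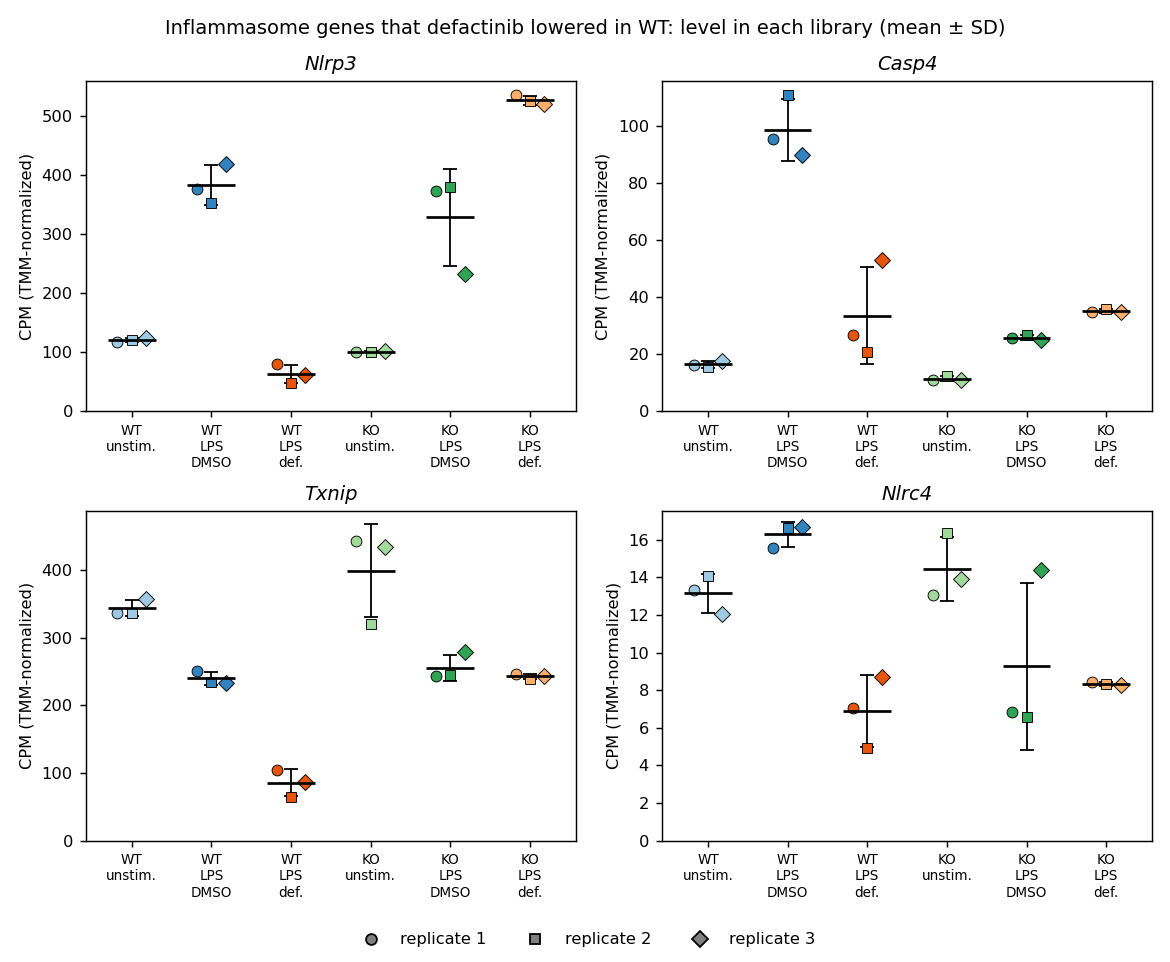
Normalised CPM of Nlrp3, Casp4, Txnip and Nlrc4 in each library (marker shape gives the replicate number, bars the mean ± SD, n = 3) in the 6 groups. In WT, each gene is lower after LPS with defactinib (def.) than after LPS with DMSO in all 3 libraries, while in the IRF5 KO (KO) Nlrp3 is highest with defactinib, at 520 to 534 CPM.

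Nlrp1b encodes an inflammasome sensor (chr11:71153102-71230733, minus strand, ENSMUSG00000070390). It was the scarcest member, at 8.16, 7.92 and 9.30 CPM in unstimulated WT cells and 4.82, 6.20 and 5.35 CPM in unstimulated IRF5 KO cells. After LPS it read 3.18, 5.83 and 4.93 CPM in WT and 2.64, 2.36 and 3.37 CPM in the IRF5 KO. In both genotypes the stimulated libraries lay below the unstimulated ones, with log2 fold changes of -0.86 (edgeR adjusted p = 0.00654) and -0.96 (adjusted p = 0.00731), just short of a 2-fold difference. The WT value passed it at -1.07 without WT LPS DMSO replicate 2, and the IRF5 KO value at -1.05 without unstimulated replicate 1 and at -1.12 without the outlying library. With defactinib before LPS, Nlrp1b read 3.84, 3.42 and 3.37 CPM in WT and 1.86, 1.59 and 1.01 CPM in the IRF5 KO. Against unstimulated cells these levels fell by 1.26 in WT (edgeR adjusted p = 0.000492) and by 1.86 in the IRF5 KO (adjusted p = 5.32e-05) on the log2 scale. It was the only member that was called higher in WT than in the IRF5 KO after LPS with defactinib, by 1.24 (SE 0.24, edgeR adjusted p = 0.000886). Nlrp1b has a close paralog beside it, Nlrp1a, so reads that match both equally were not counted and its level is uncertain.

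Pycard encodes the adaptor ASC, which links sensors to caspase-1 (chr7:127989708-127993867, minus strand, ENSMUSG00000030793). Its 18 libraries lay between 65.6 and 135.5 CPM, and no comparison passed the 2-fold threshold. It was the only member whose WT level with defactinib was higher than after LPS alone with adjusted p under 0.05. The libraries read 87.5, 65.6 and 79.5 CPM after LPS and 94.0, 102.3 and 128.4 CPM with defactinib, without overlap, and the log2 fold change was 0.48 (SE 0.12, edgeR adjusted p = 0.00373). IRF5 KO libraries read 135.5, 118.7 and 132.1 CPM of Pycard unstimulated, 91.7, 89.7 and 108.0 after LPS, and 87.7, 83.9 and 89.5 with defactinib. The defactinib effects differed by 0.63 between genotypes (SE 0.17, edgeR adjusted p = 0.0101), or 0.54 without the outlying library.

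Casp4 encodes the mouse caspase often called caspase-11, which binds cytosolic LPS and cleaves gasdermin D in the non-canonical pathway (chr9:5308828-5336783, plus strand, ENSMUSG00000033538). It showed the largest LPS response of the 10 genes in WT, from 16.2, 15.3 and 17.5 CPM to 95.4, 110.7 and 89.7 CPM. The groups were far apart, with a log2 fold change of 2.60 (SE 0.24, edgeR adjusted p = 5.72e-07) and a 6.04-fold difference in mean CPM. The LPS response was smaller in the IRF5 KO, from 10.97, 12.2 and 10.8 CPM to 25.5, 26.7 and 24.8 CPM, or 1.18 on the log2 scale (SE 0.23, edgeR adjusted p = 0.00257), which fell under 2-fold, at 0.94, when libraries were scaled by their size alone. The IRF5 KO LPS DMSO libraries lay close together for this gene, the outlying library included, and the LPS effect was 1.21 without it. The difference between the LPS effects was 1.41 (SE 0.32, edgeR adjusted p = 0.00848; 1.39 without the outlying library), and the mean of Casp4 after LPS was 3.84-fold higher in WT (log2 fold change 1.94, edgeR adjusted p = 9.72e-06; 1.92 without the outlying library).

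With defactinib before LPS, Casp4 read 26.7, 20.8 and 52.8 CPM in WT and 34.5, 35.7 and 34.8 CPM in the IRF5 KO. The WT libraries were scattered, with replicate 3 the highest, yet all 3 lay below the WT LPS libraries. Defactinib lowered Casp4 in WT (log2 fold change -1.56, SE 0.23, edgeR adjusted p = 4.55e-05; -2.04 without WT LPS defactinib replicate 3). Its effect in the IRF5 KO was 0.45 (95% interval 0.00 to 0.89, edgeR adjusted p = 0.249; 0.42 without the outlying library), and the test of the difference gave -2.01 (SE 0.32, adjusted p = 0.000197), or -1.98 without the outlying library. Under defactinib the genotypes differed by -0.07 (95% interval -0.51 to 0.38, adjusted p = 0.842). Casp4 with defactinib was still 1.03 above unstimulated WT cells (edgeR adjusted p = 0.00178), which fell to 0.55 without WT LPS defactinib replicate 3 and 0.98 without WT unstimulated replicate 2, both under the 2-fold threshold.

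Casp1 encodes the protease that matures IL-1β and IL-18, and lies beside Casp4 on chr9:5298517-5307265 (plus strand, ENSMUSG00000025888). In WT it read 63.9, 60.5 and 60.1 CPM unstimulated, 116.1, 120.0 and 99.9 after LPS, and 72.8, 63.9 and 116.7 with defactinib. Replicate 3 of the defactinib group reached the LPS level while the other two did not. LPS gave 0.86 in WT (SE 0.16, edgeR adjusted p = 0.000444), short of 2-fold, and defactinib gave -0.41 (adjusted p = 0.0407). Leaving out each library in turn moved the defactinib value between -0.695 and -0.233. Its edgeR adjusted p moved between 4.65e-05 without WT LPS defactinib replicate 3 and 0.223 without replicate 2 of that group. All 9 IRF5 KO libraries lay between 48.1 and 58.1 CPM, and LPS gave 0.07 (95% interval -0.24 to 0.39, edgeR adjusted p = 0.739; 0.02 without the outlying library). The difference between the LPS effects was 0.79 (SE 0.23, edgeR adjusted p = 0.0266), or 0.85 without the outlying library, and its adjusted p lay between 0.000713 and 0.0724 as each library was left out in turn. The lowest came when replicate 3 of WT LPS defactinib was dropped, the highest when replicate 2 of WT LPS DMSO was dropped. After LPS, Casp1 was 2.07-fold higher in WT than in the IRF5 KO (log2 fold change 1.05, SE 0.16, adjusted p = 8.88e-05; 1.10 without the outlying library), a call that fell under the 2-fold threshold, at 0.98, without WT LPS DMSO replicate 2.

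Casp8 encodes the initiator caspase that can act with ASC and also restrains necroptosis (chr1:58795374-58847503, plus strand, ENSMUSG00000026029). After LPS it read 94.9, 96.5 and 81.7 CPM in WT and 54.7, 55.7 and 68.1 CPM in the IRF5 KO, without overlap. The unstimulated libraries lay between 73.2 and 80.6 CPM in both genotypes. The LPS effect was 0.28 in WT (edgeR adjusted p = 0.0558; -0.10 with library size alone) and -0.39 in the IRF5 KO (adjusted p = 0.0146; -0.50 without the outlying library), and the difference between them was 0.67 (SE 0.16, adjusted p = 0.00968), or 0.78 without the outlying library. These are shifts of less than 2-fold. Gsdmd, which encodes the pore-forming gasdermin D (chr15:75862339-75867404, plus strand, ENSMUSG00000022575), read 91.9, 85.1 and 93.3 CPM in unstimulated WT cells and 124.9, 150.2 and 118.0 CPM after LPS. The groups did not overlap, and the log2 fold change was 0.54 (SE 0.12, edgeR adjusted p = 0.00142). Gsdmd lay between 78.3 and 96.7 CPM in all 9 IRF5 KO libraries, and LPS gave 0.16 (95% interval -0.06 to 0.39, edgeR adjusted p = 0.274; 0.22 without the outlying library). The difference between the LPS effects on Gsdmd was 0.38 and did not pass (edgeR adjusted p = 0.123; 0.32 without the outlying library).

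Nek7 encodes a kinase that binds NLRP3 and is needed for its assembly (chr1:138482875-138620141, minus strand, ENSMUSG00000026393). It varied least of the 10 genes, from 102.6 to 145.3 CPM over all 18 libraries. LPS in WT gave -0.11 (95% interval -0.29 to 0.06) and defactinib in WT gave 0.07 (-0.10 to 0.25), so both intervals lay well inside a 2-fold difference. Its largest difference was between genotypes, at 0.31 higher in unstimulated WT cells (SE 0.09, edgeR adjusted p = 0.0293), with 143 to 145 CPM in replicates 1 and 2 and 120 CPM in replicate 3 against 107 to 116 CPM in the IRF5 KO. Its adjusted p reached 0.137 without WT unstimulated replicate 1.

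**Figure D3:**
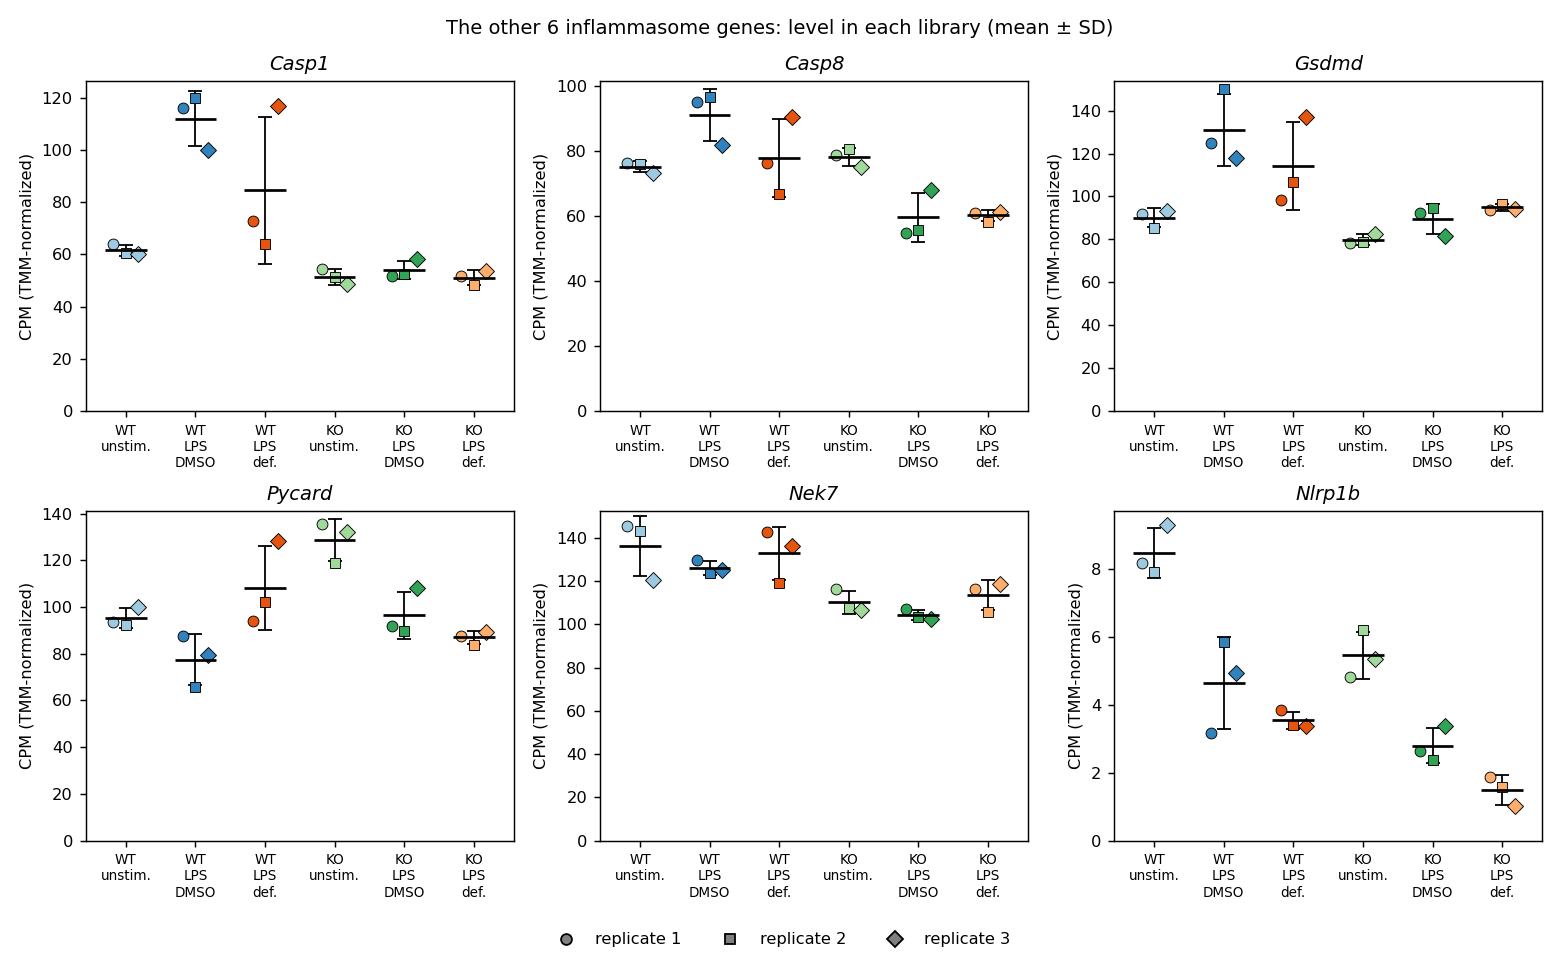
Normalised CPM of Casp1, Casp8, Gsdmd, Pycard, Nek7 and Nlrp1b in each library (marker shape gives the replicate number, bars the mean ± SD, n = 3) in the 6 groups. Casp1 and Gsdmd sit above their unstimulated levels in all 3 WT LPS DMSO libraries, and WT LPS defactinib replicate 3 is the highest of its group for Casp1 (116.7 CPM), Casp8, Gsdmd and Pycard.

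Txnip encodes the thioredoxin-interacting protein, a glucose-responsive arrestin that has been reported to bind NLRP3 (chr3:96557957-96561883, plus strand, ENSMUSG00000038393). In WT it read 337, 337 and 357 CPM unstimulated, 252, 235 and 233 after LPS, and 104.5, 64.6 and 86.5 with defactinib. Each step down was free of overlap. LPS gave -0.52 (SE 0.14, edgeR adjusted p = 0.00853), and defactinib lowered Txnip further, by a log2 fold change of -1.49 (SE 0.15, edgeR adjusted p = 9.49e-07). Against unstimulated cells the level with defactinib was 4.03-fold lower in WT (log2 fold change -2.01, SE 0.15, edgeR adjusted p = 1.49e-07). In the IRF5 KO, Txnip read 443, 320 and 434 CPM unstimulated, 243, 246 and 278 after LPS, and 246, 240 and 243 with defactinib. LPS thus gave a similar value there, -0.64 (SE 0.14, edgeR adjusted p = 0.00503), whereas defactinib gave -0.08 (95% interval -0.36 to 0.21, adjusted p = 0.794). Without the outlying library these values were -0.71 and -0.01. The test of the difference between the defactinib effects gave -1.42 (SE 0.20, edgeR adjusted p = 7.5e-05), or -1.48 without the outlying library.

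A gene was called where its edgeR adjusted p was under 0.05 and its difference was at least 2-fold. LPS called 2 of the 10 genes in WT (Nlrp3 and Casp4, both higher), where 21.3% of all tested genes were called. It also called Nlrp3 and Casp4 higher in the IRF5 KO, against 13.3% of all genes (Casp4 not with library size alone), and Nlrc4 and Nlrp1b were called as well, both lower, without the outlying library, against 26.2%. Defactinib before LPS called 4 of 10 lower in WT (Nlrp3, Nlrc4, Casp4 and Txnip) and none higher, where 29.1% of all genes were called and 18.6% were called lower. Defactinib in the IRF5 KO called 0 of 10, where 0.919% of all genes were called. There, DESeq2 and limma-voom also called 0, and 2 of the 10 genes (Nlrp3 and Nlrp1b) had an unadjusted p under 0.05 in edgeR. Nlrp1b gave -0.90 there (edgeR adjusted p = 0.053), or -0.73 without the outlying library. It was past both thresholds, at -1.02, without IRF5 KO LPS DMSO replicate 2. Between genotypes, 0 of 10 were called unstimulated by edgeR, DESeq2 or limma-voom (7.31% of all genes by edgeR; 4 of the 10 had an unadjusted p under 0.05). There were 2 called after LPS (25.8%; Casp1 and Casp4 higher in WT, with Nlrc4 added, against 34.5%, without the outlying library) and 3 after LPS with defactinib (17.3%; Nlrp3 and Txnip lower in WT, Nlrp1b higher).

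LPS with defactinib against unstimulated cells called 3 of 10 in WT, where 24.9% of all genes were called, with Casp4 higher and Nlrp1b and Txnip lower. In the IRF5 KO it called 2 of 10 higher, Nlrp3 and Casp4 (7.85% of all genes were called higher), and 1 lower, Nlrp1b (16.2%). Nlrp3 was 5.24-fold above unstimulated cells there (log2 fold change 2.39, SE 0.18, edgeR adjusted p = 3.03e-07). The difference between LPS effects was called for 1 gene, Casp4 (9.83% of all genes; Casp4 and Nlrc4, against 23.6%, without the outlying library), and the difference between defactinib effects for 4, Nlrp3, Nlrc4, Casp4 and Txnip (22.8% of all genes, 12.3% lower). The median log2 fold change of the 10 genes under defactinib was -0.40 in WT, beside 0.09 over all tested genes, and -0.03 in the IRF5 KO, beside -0.04.

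With no fold threshold, at edgeR adjusted p under 0.05 alone, 6 of the 10 genes passed for LPS in WT and 6 in the IRF5 KO, where 41.8% and 37.5% of all genes passed. For defactinib 6 passed in WT (57.0% of all genes) and 1 in the IRF5 KO, Nlrp3 (3.36%). Between genotypes 2 passed unstimulated (15.3%), 8 after LPS (52.2%) and 5 after LPS with defactinib (36.3%). Against unstimulated cells, LPS with defactinib gave 7 in WT (53.2%) and 7 in the IRF5 KO (53.4%). The LPS effects differed between genotypes for 3 genes (17.1%) and the defactinib effects for 5 (37.0%). After LPS, Nlrp3 and Txnip were the members that did not pass between genotypes. Without the outlying library the counts that rest on its group were 7 for LPS in the IRF5 KO (58.3%), 1 for defactinib there (7.83%), 7 between genotypes after LPS (65.5%), 4 for the difference between LPS effects (46.7%) and 6 for that between defactinib effects (54.0%).

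Groups whose libraries did not overlap were common throughout the tested genes, so single gaps between groups of 3 are read against that share. LPS left 9 of the 10 genes without overlap in WT (64.6% of all genes) and 6 in the IRF5 KO (40.1%). Defactinib did so for 5 in WT (62.5%) and 4 in the IRF5 KO (26.6%). The genotypes did not overlap for 7 unstimulated (51.4%), 7 after LPS (50.9%) and 8 after LPS with defactinib (51.5%). LPS with defactinib and unstimulated cells were apart for 6 in WT (61.5%) and 8 in the IRF5 KO (72.5%). Without the outlying library, 8 did not overlap for LPS in the IRF5 KO (78.6%), 6 for defactinib there (54.8%) and 8 between genotypes after LPS (80.7%).

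**Figure D4:**
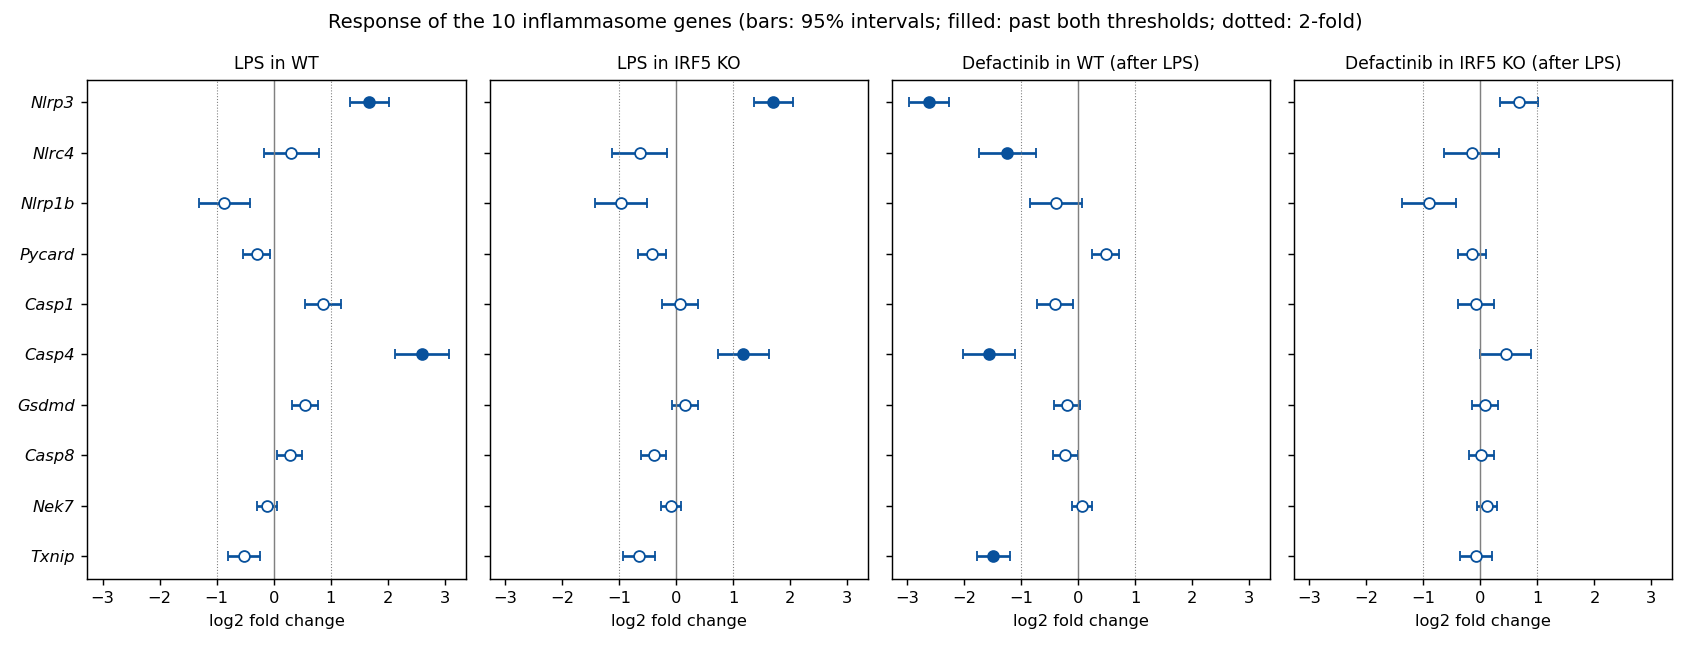
Log2 fold change of the 10 genes for LPS against unstimulated cells and for defactinib against DMSO under LPS, in WT and in IRF5 KO cells; bars are 95% intervals, filled points passed both thresholds, and dotted lines mark a 2-fold difference. The 4 filled points under defactinib in WT run from -2.61 (Nlrp3) to -1.24 (Nlrc4), and none of the 10 is filled under defactinib in the IRF5 KO.

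Other genes of the pathway were counted in 5 lists, chosen with earlier results of these data known. A count above the share of all genes is therefore a description and not a test. Over all tested genes, LPS in WT called 11.6% higher and 9.71% lower, and defactinib in WT called 18.6% lower, and the counts that follow are read against these shares. Of 11 tested genes for other sensors and their adaptors, LPS in WT called 5 higher and 1 lower, and defactinib in WT called 5 lower. Aim2, a sensor of cytosolic DNA, went from 52.0 ± 3.38 to 167 ± 25.2 CPM with LPS and stood at 59.8 ± 10.8 CPM with defactinib (defactinib log2 fold change -1.48, edgeR adjusted p = 1.2e-06). Ripk2, the kinase downstream of NOD receptors, went from 57.7 ± 0.80 to 200.2 ± 7.75 CPM and stood at 44.4 ± 9.62 CPM with defactinib (-2.17, adjusted p = 5.01e-07). The median of this list under defactinib in WT was -0.95, beside 0.09 for all tested genes.

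Of 7 genes for substrates and executioners, LPS in WT called 2 higher and 1 lower, and defactinib in WT called 2 lower, the cytokine genes Il1b and Il1a, a share near that of all genes. Il1b read 64.1, 201 and 930 CPM in the 3 WT defactinib libraries, against 2890 to 3713 CPM after LPS alone, so its fall of 3.02 on the log2 scale (edgeR adjusted p = 0.00209) came with a wide spread and reached -4.60 when WT LPS defactinib replicate 3 was dropped. IRF5 KO libraries read 563 and 568 CPM of Il1b in LPS DMSO replicates 1 and 2, 1825 CPM in the outlying library and 1798 ± 55.7 CPM with defactinib. Il1a read 178, 47.5 and 338 CPM in the WT defactinib libraries, and fell by 3.87 on the log2 scale under defactinib in WT (edgeR adjusted p = 1.93e-05). That value lay between -4.60, without replicate 3 of the defactinib group, and -3.40, without its replicate 2. Il18 was scarce, at 0.84 to 3.99 CPM over all 18 libraries, and was called higher in WT than in the IRF5 KO after LPS (log2 fold change 1.15, edgeR adjusted p = 0.00176) and after LPS with defactinib (1.14, adjusted p = 0.00266). The former was under 2-fold, at 0.90, with library size alone, and the latter, at 0.835, when WT LPS defactinib replicate 2 was dropped.

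Of 7 genes for caspase-8 and necroptosis partners, LPS in WT called 4 higher, above the share of all genes, and defactinib in WT called 2 lower, near it. These 2 were Cflar, which encodes the caspase-8 regulator cFLIP (from 1330 ± 43.5 to 433 ± 148 CPM; -1.62, edgeR adjusted p = 2.19e-05), and Ripk1, a kinase of cell death signalling (from 77.1 ± 6.65 to 18.7 ± 6.52 CPM; -2.04, adjusted p = 2.35e-05). Tnfaip3, which encodes the ubiquitin-editing enzyme A20, stood at 973 ± 45.1 CPM after LPS and 1320 ± 361 CPM with defactinib in WT, and Zbp1, a nucleic acid sensor, at 99.9 ± 23.8 and 90.1 ± 94.4 CPM, so neither differed beyond its spread. Of 6 genes upstream of NLRP3, LPS in WT called Gbp5, a guanylate-binding protein gene, higher, and the ATP receptor gene P2rx7 and the channel gene Panx1 lower. Defactinib in WT called Gbp5 (from 1148 ± 156 to 81.7 ± 78.8 CPM) and the potassium channel gene Kcnk6 (from 80.2 ± 9.59 to 15.97 ± 4.37 CPM) lower. Of 5 genes related to Txnip, LPS in WT called 0 by edgeR or limma-voom and 1 by DESeq2 (4 had an unadjusted p under 0.05 in edgeR), and defactinib in WT called 2 lower. These were Txnrd1, thioredoxin reductase (-1.91, edgeR adjusted p = 2.75e-06), and Arrdc4, the arrestin closest to Txnip (-1.74, adjusted p = 3.85e-08). Defactinib in the IRF5 KO called 0 of the 36 listed genes by edgeR, where only 0.919% of all tested genes were called. DESeq2 and limma-voom also called 0, although DESeq2 gave Il1b no adjusted p there. In edgeR, 11 of the 36 had an unadjusted p under 0.05, a share that was not computed for all genes.

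The genes most like Nlrp3 and Txnip in pattern were found by the root mean square difference in centred log2 CPM over the 18 libraries among 8450 genes. Nearest to Nlrp3 were Frmd6 (0.22), Rnf19a (0.24) and Ets2 (0.25), where the median gene lay at 1.19. Nearest to Txnip were Edrf1 (0.20), Usp10 (0.22) and Fbxo34 (0.22), where the median gene lay at 0.83. Frmd6, like Nlrp3, was lowest in WT LPS defactinib libraries at a mean of 14.6 CPM and highest in IRF5 KO LPS defactinib libraries at 131 CPM. Edrf1 was lowest in WT LPS defactinib libraries at a mean of 3.79 CPM.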

How the data were processed

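RNA was measured by paired-end sequencing (150 bases) in 18 libraries, 3 biological replicates in each of 6 groups. The labels do not tie replicates to single mice, so p-values measure the spread between these samples. The deposited values were raw counts of read pairs per gene, made by the authors with STAR on mm10 and featureCounts 1.6.3 (reverse-stranded, uniquely aligned pairs, counted over exons). The annotation release was not given in the sources used here. Pairs shared by paralogs were therefore not counted, while antisense genes were kept apart by strand.

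Ensembl identifiers were paired with symbols for 50376 of 50600 rows. Counts were TMM-normalised and fitted with edgeR 4.0.16 (R 4.3.3) in a single quasi-likelihood model of all 6 groups, after filterByExpr had left 15663 genes, and p-values were adjusted over these by Benjamini-Hochberg for each of 11 comparisons. Calls needed adjusted p under 0.05 and at least a 2-fold difference. SE was the log2 fold change divided by the square root of F, and 95% intervals are 1.96 SE to either side. CPM used TMM-scaled library sizes, and CPM per kb divided by the deposited exon length. The fit was tested on simulated data. With 39282181 or more counted pairs a library, even Nlrp1b, the scarcest gene, had 38 or more counts in each, and the spread between replicates limited precision.

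Alternatives were DESeq2 1.42.0, limma-voom (limma 3.58.1), other scalings, filters and thresholds, a replicate block, only the groups compared, and leaving out each library. The genes and lists were chosen with earlier results of these data known. All 10 genes were reported whatever their result. Named genes of the lists were those called for LPS or defactinib in WT with mean log2 CPM of at least 3, up to 4 a list by mean CPM, with Il1b, Il1a, Il18 and Irf5. Genes like Nlrp3 and Txnip were sought among those with mean log2 CPM of at least 3. No sample was left out of the main fit.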

Additional observations from a re-analysis of the deposited data

Results flagged for a closer look

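For 8 results the effect of a treatment differed between WT and IRF5 KO cells by the edgeR interaction test, at adjusted p under 0.05. The effect of defactinib given before LPS differed, as WT minus IRF5 KO on the log2 scale, by -3.30 for Nlrp3, -2.01 for Casp4, -1.42 for Txnip, -1.08 for Nlrc4 and 0.63 for Pycard. The effect of LPS differed by 1.41 for Casp4, 0.79 for Casp1 and 0.67 for Casp8. Of these, Pycard, Casp1 and Casp8 were below a 2-fold difference. All 8 use the IRF5 KO LPS DMSO group, whose treatment labels are in doubt and whose replicate 3 stood apart. The value without replicate 3 is given beside each result and does not settle that doubt.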

How the results depend on the processing

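Over 27 alternative settings, 2774 single-gene values were compared with the main fit. Of these, 2693 kept their direction and their call, 51 came to be called, 19 were no longer called and 11 changed sign. The setting with no fold threshold kept the values of the main fit, so those that came to be called under it were still below 2-fold. None of the called values changed sign. Scaling by library size alone moved the median log2 fold change of all genes by over 0.1 in 10 of the 11 comparisons (not between genotypes after LPS with defactinib), for example from -0.01 to -0.38 for LPS in WT and from 0.09 to 0.29 for defactinib in WT. Under it the number of the 10 genes called was 3 in place of 2 for LPS in WT, 4 in place of 3 for LPS plus defactinib in WT, 3 in place of 4 for the difference between defactinib effects, 1 in place of 0 for defactinib in IRF5 KO, 1 in place of 2 between genotypes after LPS, and 5 in place of 3 for LPS plus defactinib in IRF5 KO. The members that changed side under it were Nlrp1b for LPS in WT (-1.24), LPS in IRF5 KO (-1.19) and defactinib in IRF5 KO (-1.04), Nlrp3 (-1.12) and Nlrc4 (-1.12) for LPS plus defactinib in WT, and Nlrc4 (-1.16) and Txnip (-1.08) for LPS plus defactinib in IRF5 KO, all now called, and Casp4 for LPS in IRF5 KO (0.94), Casp1 between genotypes after LPS (0.80), Casp4 for LPS plus defactinib in WT (0.84) and Nlrc4 for the difference between defactinib effects (-0.73), no longer called. It also changed the sign of values that had not been called, to -0.073 (Nlrc4, LPS in WT), -0.102 (Casp8, LPS in WT), -0.16 (Casp1, LPS in IRF5 KO), -0.08 (Gsdmd, LPS in IRF5 KO), -0.01 (Nlrp3, genotypes after LPS) and -0.082 (Irf5, genotypes after LPS). The Nlrp3 difference between LPS effects turned to 0.003 under limma-voom and, without a library, to 0.004, 0.053 and 0.064 (WT LPS DMSO replicate 2, IRF5 KO LPS DMSO replicates 1 and 2), within a range of -0.227 to 0.064, and the Nlrc4 effect of defactinib in IRF5 KO to 0.317 without LPS DMSO replicate 3, within a range of -0.368 to 0.317. With no fold threshold, the counts were 6 for LPS in WT, 6 for LPS in IRF5 KO, 6 for defactinib in WT, 1 for defactinib in IRF5 KO, 2, 8 and 5 between genotypes (unstimulated, after LPS, after LPS with defactinib), 7 and 7 for LPS plus defactinib in WT and IRF5 KO, and 3 and 5 for the differences between LPS and between defactinib effects. limma-voom called 2 differences between LPS effects in place of 1. The Casp4 call for LPS plus defactinib in WT also fell under 2-fold with no filter (0.99) and with limma-voom (0.92), and the Nlrc4 difference between defactinib effects was also lost with a filter of 5 CPM in 3 libraries (-0.997) and with only the groups compared (-1.07). The causes of these changes were not tested.

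Leaving out each library in turn gave 2 to 3 called for LPS in WT, 2 to 4 for LPS in IRF5 KO, 4 to 4 for defactinib in WT, 0 to 1 for defactinib in IRF5 KO, 0 to 0, 1 to 3 and 3 to 3 between genotypes (unstimulated, after LPS, after LPS with defactinib), 2 to 4 and 3 to 3 for LPS plus defactinib in WT and IRF5 KO, 1 to 2 for the differences between LPS effects and 3 to 4 for those between defactinib effects. Deviations of same-numbered replicates from their group means had a median correlation of 0.005 over 45 pairs (over 0.1 in 4). With 3 libraries a group this gave no sign of pairing but cannot exclude it. The fit with a replicate block gave 2, 2, 4, 0, 0, 2, 3, 3, 3, 1 and 4 called in the same order of comparisons, the same counts as without it. Among the single-gene results followed through these settings, DESeq2 gave no adjusted p for Il1b in 4 comparisons and for Kcnk6 in 1. In the IRF5 KO LPS DMSO group, the coefficient of variation ran from 2.29% (Nek7) to 48.1% (Nlrc4), so precision there differed widely between members.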
